A study of Mus musculus with 9 samples.

Results

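The genes described here belong to the circadian clock and its direct output: Dbp, Tef, Nr1d1, Nr1d2, Per1, Per2, Per3, Arntl, Npas2 and Nfil3. They were followed across microarrays of mouse distal small intestine. The members are the probe sets that the platform annotation gives to exactly 1 of these 10 symbols. They are 23 of 45101 probe sets, for 10 of the 18194 genes that have a probe set of their own. The genes were chosen from the textbook clock after group values of these same arrays, above all the higher Dbp signal outside the Rag1 group, had been seen. Their differences between groups are therefore described without a test.

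The arrays measured messenger RNA of pooled segments of whole distal small intestine. All mice had carried Bacteroides thetaiotaomicron, a common gut bacterium, for 10 days. The 9 Affymetrix arrays formed 3 groups, each with 3 arrays. Rag1 arrays hold tissue labelled Rag 1, the name of a recombinase gene without which mature B and T cells do not form. BP arrays bear that source label too, with BP in the title, a term left unexplained there. Wild type arrays hold B6 tissue. The series title names the effect of IgA, the secreted gut antibody, as its question. The labels give no age, sex, light schedule or hour of sampling. They do not say whether each array is a separate mouse, so errors describe arrays and not mice. Each standard error is pooled over the 3 groups and drawn toward the spread of probe sets of similar intensity. It is therefore not the spread of the 2 groups compared alone.

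The circadian clock is a feedback loop of transcription that runs in most cells, the intestinal epithelium included. Arntl (also called Bmal1) pairs with Clock or Npas2 and switches on Per1, Per2, Per3, Nr1d1, Nr1d2, Dbp and Tef through E-box sequences. The Per proteins then inhibit the pair, and the Nr1d proteins repress Arntl, Npas2 and Nfil3 through ROR elements, so that both sets peak at opposite times of day. Dbp and Tef activate, and Nfil3 represses, genes with a D-box, which carry the rhythm to transport and metabolism.

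Whole-array features bear on every value below. Deposited intensities are linear and differences are on the log2(intensity + 16) scale after quantile normalization. Over the tested probe sets, the median SD within a group was 0.44 for BP, against 0.21 in Rag1 and 0.23 in wild type. The beta-actin control probe sets serve as an indirect check of RNA integrity. Their 3' signal over their 5' signal was 1.53 to 1.77 on Rag1 arrays and 1.76 to 4.17 on wild type arrays. It was 14.2, 2.43 and 20.2 on BP replicates 1, 2 and 3. The X-linked transcript Xist read 5.84 to 24.1 on Rag1 arrays, 1086 to 1539 on wild type arrays, and 36.0, 624 and 1735 on BP replicates 1, 2 and 3. The Y-linked transcript Eif2s3y read 44.9 to 109 on Rag1 arrays, 1.40 to 7.22 on wild type arrays, and 17.0, 3.16 and 3.34 on the BP replicates. Igha read 83.4 to 93.4 on Rag1 arrays, 54.5 to 111 on BP arrays and 2583 to 6389 on wild type arrays, while the Rag1 probe set, at most 22.8, was too dim to check the label. The 6 enterocyte markers were all measured, with a summed intensity between 27576 and 36645 on every array. The 4 goblet cell markers summed to 23619 to 29055 on Rag1, 18596 to 19221 on BP and 22548 to 22682 on wild type arrays. The 6 smooth muscle markers summed to 8103 to 13498, with overlap between all groups. The 3 measured Paneth cell markers of 4 summed to 11920 to 14475 on Rag1, 11800 to 13469 on BP and 6244 to 12262 on wild type arrays. The 5 measured plasma and B cell markers of 6 summed to 158 to 159, 164 to 176 and 3194 to 9159 in that order of groups, and the 5 T cell markers to 149 to 152, 80.0 to 200 and 468 to 478. The 4 macrophage markers summed to 1120 to 1203, 1253 to 1586 and 828 to 1169, and the 3 measured neuron and glia markers of 5 to 254 to 325, 145 to 249 and 282 to 339, so that BP lay wholly above Rag1 in the first and below in the second. In tissue samples of this kind, fewer cells of a type and less RNA per cell cannot be told apart. Xist and Eif2s3y each separated all Rag1 arrays from all wild type and all BP arrays, with BP replicate 1 nearest to Rag1 in both. Sex-linked signal and group therefore cannot be told apart in either comparison with Rag1. The part of sex-linked signal, the actin ratio and cell makeup in the clock gene values was not tested.

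The promoters of the members show which loop elements lie near their starts. RefSeq promoter windows on GRCm38.p6, from 250 bases before to 50 after a start, were found for 9 of 10 members (12 windows; none for Per2). They were searched on both strands for the E-box CACGTG, its variant CACGTT, the D-box TTATGTAA or TTACGTAA, and the ROR element core TAGGTCA. Of all 32851 windows, 7.15%, 4.68%, 1.06% and 2.61% hold these in the same order. Of the members, 6 have a match, and the stretches below show the 5 with an E-box, a D-box or a ROR element, to let the loop's elements be seen, with the motif in capitals. Each is written 5′ to 3′ on the gene's own strand. The first Per1 start has an E-box 166 bases before it, both Tef starts have one, and Per3 has 2 D-boxes. Nfil3 and the second Arntl start have a ROR element, that of Nfil3 on the opposite strand.
Per1, chr11:69098749-69098829, plus strand: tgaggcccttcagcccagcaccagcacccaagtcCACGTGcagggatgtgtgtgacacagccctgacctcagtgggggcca
Tef, first start, chr15:81802513-81802593, plus strand: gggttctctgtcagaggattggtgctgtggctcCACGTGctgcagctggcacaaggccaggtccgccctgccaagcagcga
Tef, second start, chr15:81811244-81811324, plus strand: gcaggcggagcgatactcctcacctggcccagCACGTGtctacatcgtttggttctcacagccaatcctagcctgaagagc
Per3, chr4:151044805-151044885, minus strand: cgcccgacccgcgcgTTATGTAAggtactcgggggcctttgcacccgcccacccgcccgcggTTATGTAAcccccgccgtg
Nfil3, chr13:52981040-52981120, minus strand: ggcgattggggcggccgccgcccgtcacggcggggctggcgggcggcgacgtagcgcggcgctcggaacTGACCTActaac
Arntl, second start, chr7:113207530-113207558, plus strand: aaggcagaaagTAGGTCAgggacggaggt
Nr1d1 has the E-box variant, on the opposite strand 28 bases before its start. The windows of Dbp, Nr1d2 and Npas2 have none of these letters, nor do those of the second Per1 start and the first Arntl start. A match is only a description of the sequence.

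Among the output activators, Dbp was the member with the widest range. Its brighter probe set read 59.3, 99.8 and 55.0 on Rag1 replicates 1, 2 and 3. It read 217, 1323 and 583 on BP replicates and 859, 544 and 495 on wild type replicates in the same order. Every BP and wild type array lay above every Rag1 array, and BP and wild type overlapped. The difference from Rag1 was 2.85 ± 0.45 (log2, SE, n = 3 in each group) for BP and 2.95 ± 0.45 for wild type, or 7.19-fold and 7.73-fold on that scale. Among the BP arrays Dbp was lowest on replicate 1, the BP array with the lowest Xist signal and an actin ratio of 14.2. It was highest on replicate 2, the BP array with the lowest actin ratio. With replicate 2 as the only BP array the difference was 3.79. The second Dbp probe set read 59.6 to 95.5 on Rag1, 119 to 432 on BP and 269 to 453 on wild type arrays. It differed from Rag1 by 1.54 ± 0.33 and 2.23 ± 0.33, and the 2 probe sets had a Pearson r of 0.95 over the 9 arrays.

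Tef, the close relative of Dbp, separated wild type from the rest on its brightest probe set. That probe set read 312, 387 and 301 on Rag1 replicates, 288, 425 and 619 on BP replicates and 731, 904 and 747 on wild type replicates. All wild type arrays lay above all others, while BP and Rag1 overlapped. The difference from Rag1 was 1.28 ± 0.28 for wild type and 0.44 ± 0.28 for BP, and wild type differed from BP by 0.84 ± 0.28. The 2 dimmer Tef probe sets did not share this pattern, with wild type differences of -0.17 ± 0.39 and -0.46 ± 0.34. Their BP differences were 0.05 ± 0.39 and -0.97 ± 0.34. On the second, all BP arrays lay below all Rag1 arrays after normalization and overlapped with them as deposited. The second had a BP mean under the brightness filter, so it was kept through the groups where it is higher. Averaged over all 3, the wild type difference was 0.22 and the BP difference -0.16, so both rest on the brightest probe set.

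**Figure D1:**
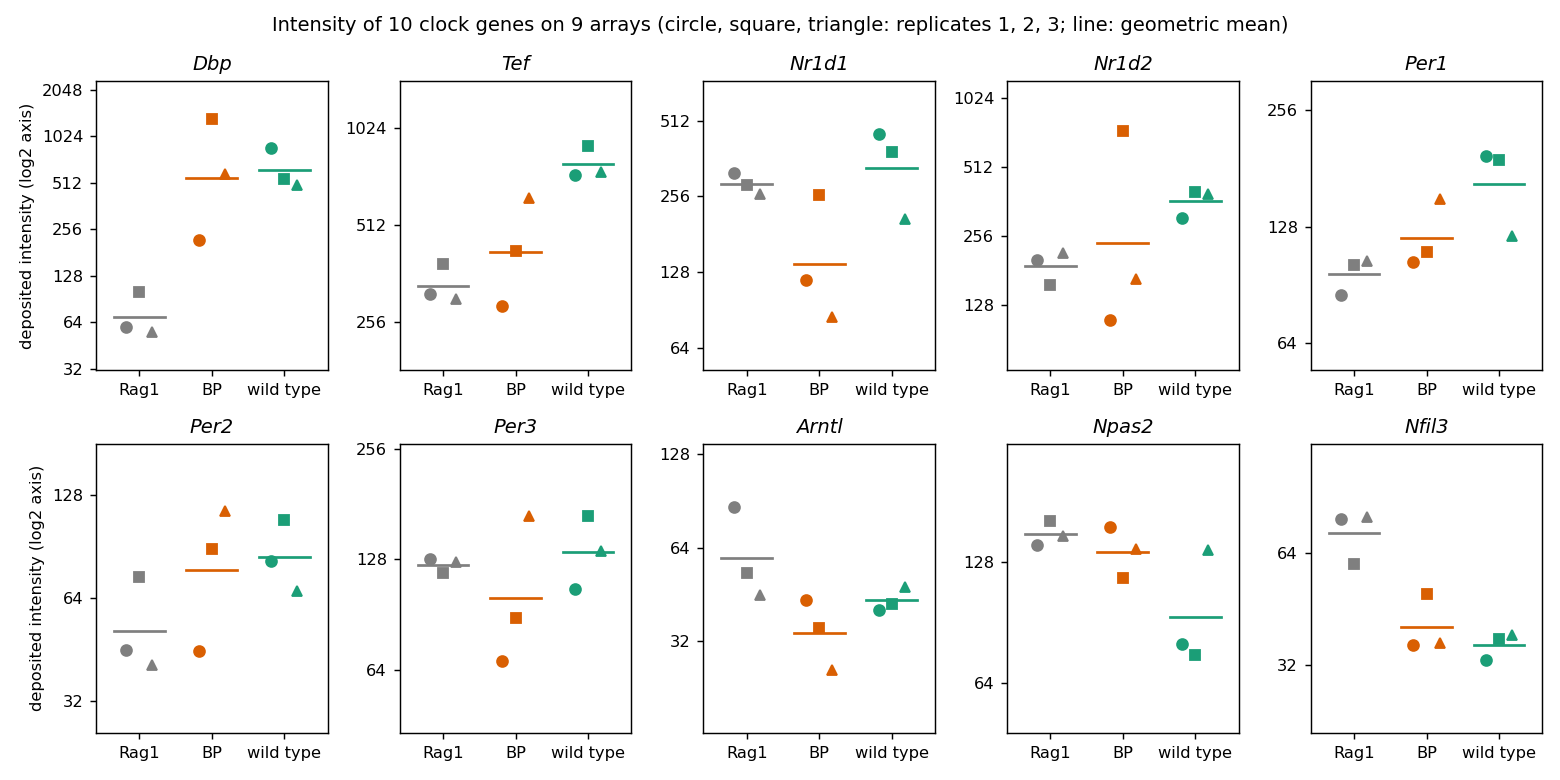
Deposited intensity (log2 axis) of the probe set that stands for each of the 10 genes, in 3 Rag1, 3 BP and 3 wild type arrays, with symbols for replicates 1 to 3 and a line at the geometric mean. Dbp is above all Rag1 arrays on every BP and wild type array, Nfil3 below, and Nr1d1 is below all Rag1 arrays on every BP array.

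The nuclear receptors Nr1d1 and Nr1d2, which repress Arntl, differed from each other. Nr1d1 read 318, 285 and 262 on Rag1 replicates, 119, 260 and 85.1 on BP replicates, and 451, 386 and 208 on wild type replicates. All BP arrays lay below all Rag1 arrays, BP replicate 2 only just, and the wild type arrays overlapped both groups. The difference was -0.85 ± 0.32 for BP against Rag1, 0.27 ± 0.32 for wild type against Rag1 and 1.12 ± 0.32 for wild type against BP. The low Nr1d1 readings fell on BP replicates 1 and 3, the arrays with high actin ratios, and with replicate 2 as the only BP array the BP difference was -0.33.

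Nr1d2 read 202, 156 and 216 on Rag1 replicates, 109, 738 and 166 on BP replicates, and 308, 399 and 389 on wild type replicates. Wild type lay wholly above Rag1, by 0.98 ± 0.42. The BP arrays spanned the range of both other groups, with replicate 2 the highest and replicate 1 the lowest of all 9. The BP difference of 0.47 ± 0.42 rests on replicate 2 and was -0.15 without it. The other Nr1d2 probe set, at most 48.2, was the only member probe set too dim to be tested.

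The Per genes are inhibitors of the activating pair, and the brightest probe set of each had a positive difference for wild type against Rag1. Per1 read 85.2, 102 and 105 on Rag1 replicates, 104, 110 and 151 on BP replicates and 195, 191 and 121 on wild type replicates. Wild type lay above Rag1 without overlap, by 0.82 ± 0.29, and BP lay between them with overlap on both sides, at 0.39 ± 0.29. With BP replicate 2 as the only BP array that value was -0.10.

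Per2, the Per gene most often used as a clock reporter, was dimmer. Its brightest probe set read 40.6 to 73.5 on Rag1, 44.8 to 115 on BP and 66.9 to 108 on wild type arrays. The difference from Rag1 was 0.69 ± 0.32 for wild type and 0.52 ± 0.32 for BP. The other 2 Per2 probe sets gave 0.83 and 0.61 for wild type and 0.70 and 0.55 for BP. Both had a Rag1 mean (5.19 and 4.92) under the brightness filter of 5.30 and passed it through the other groups, so their sign supports nothing. As deposited, the brightest probe set overlapped between wild type and Rag1, and after normalization it did not.

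Per3 gave different readings from its 6 probe sets. The brightest read 118 to 128 on Rag1, 67.6 to 168 on BP and 106 to 168 on wild type arrays, with differences from Rag1 of -0.13 ± 0.33 for BP and 0.25 ± 0.33 for wild type. Wild type and Rag1 overlapped as deposited and separated only after normalization. A dimmer one ordered the groups without any overlap. It read 28.1, 20.8 and 28.2 on Rag1 replicates, 35.8, 48.7 and 50.9 on BP replicates and 88.7, 72.3 and 66.2 on wild type replicates. Its differences from Rag1 were 0.54 ± 0.25 for BP and 1.23 ± 0.25 for wild type. It was singled out after its values were seen, and the other 4 probe sets lay between -0.17 and 0.38 for BP and between -0.07 and 0.39 for wild type.

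Arntl, the core activator, had negative differences from Rag1 on both of its probe sets. The dimmer of them read 82.3, 44.6 and 82.8 on Rag1 replicates, 32.4, 42.9 and 20.7 on BP replicates and 13.9, 16.1 and 37.1 on wild type replicates. Every BP and wild type array was below every Rag1 array, with differences of -0.79 ± 0.31 and -1.01 ± 0.31. Its wild type mean, 5.28, was under the brightness filter, so it was kept through the groups where it is higher. The brighter one read 45.1 to 86.4 on Rag1, 26.0 to 43.4 on BP and 40.3 to 47.9 on wild type arrays. Its differences were -0.55 ± 0.27 for BP and -0.18 ± 0.27 for wild type, and after normalization both groups overlapped with Rag1, while as deposited all BP arrays lay below Rag1.

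Npas2, which can replace Clock as the partner of Arntl, read lowest on 2 of the 3 wild type arrays. Its brighter probe set read 141 to 162 on Rag1, 116 to 156 on BP, and 79.8, 74.8 and 137 on wild type replicates 1, 2 and 3. The difference from Rag1 was -0.44 ± 0.29 for wild type and -0.02 ± 0.29 for BP, and after normalization both groups overlapped with Rag1. The dimmer probe set gave -0.44 ± 0.33 and -0.22 ± 0.33. As deposited, wild type lay wholly below Rag1 on both probe sets, replicate 3 only just on the brighter one.

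Nfil3, the repressor that competes with Dbp and Tef for the D-box, had the least spread of the 10 main probe sets within BP and within wild type. Its single probe set read 79.1, 59.9 and 80.1 on Rag1 replicates, 36.1, 49.6 and 36.7 on BP replicates and 33.0, 37.5 and 38.6 on wild type replicates. All 6 BP and wild type arrays were below all Rag1 arrays, with differences of -0.60 ± 0.22 and -0.57 ± 0.22. BP and wild type overlapped and differed by 0.03 ± 0.22. The size of the difference from Rag1 depended on the constant added before the logarithm, with -0.77 and -0.73 for a constant of 1 and -0.35 and -0.34 for 64, since the constant compresses dim values. Its SD was 0.16 within Rag1, 0.09 within BP and 0.06 within wild type.

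**Figure D2:**
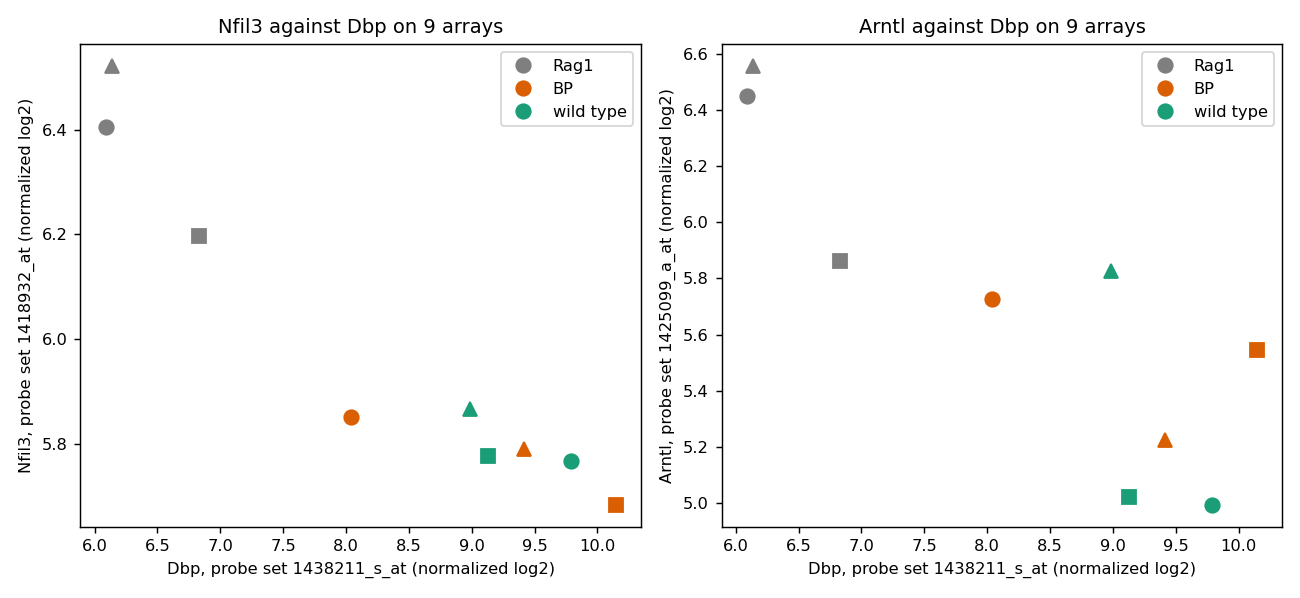
Normalized log2 values of Nfil3 (left) and of the dimmer Arntl probe set (right) against the brighter Dbp probe set on each of 9 arrays, coloured by group. The 3 Rag1 arrays combine low Dbp with high Nfil3 and high values of this Arntl probe set. BP replicate 1 lies between them and the other arrays in Dbp. The brighter Arntl probe set, which stands for the gene and is not shown, overlapped between all groups after normalization.

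Counted over the 10 members, each by its brightest tested probe set, 1 of 10 passed an adjusted p of 0.05 in limma for BP against Rag1, where 3.8% of all tested probe sets did (1.1% higher and 2.7% lower). With median centring of the arrays, 158 probe sets were higher and 1054 lower, in place of 298 and 729. Again 1 of 10 passed for wild type against Rag1, where 0.329% of probe sets were called (0.259% higher and 0.0703% lower). Between wild type and BP it was 0 of 10, where 0.633% were called (0.574% higher and 0.0592% lower). The called member was Dbp in both comparisons. These contrasts chose the members, so nothing is read from these counts. Of the 7 genes on the Dbp side, 7 had positive differences for wild type against Rag1, with a median of 0.82, and 5 for BP against Rag1, with a median of 0.44. The 3 genes on the Arntl side were negative in both, with medians of -0.44 and -0.55. The medians over all tested probe sets were -0.01 and -0.05. Both comparisons use the same Rag1 arrays.

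After normalization, wild type lay wholly above Rag1 for 6 of the 7 genes on the Dbp side, where 9.0% of all tested probe sets lay above in this way, and Nr1d1 overlapped. As deposited, Per2 and Per3 overlapped too, which leaves 4 of 7. The shares of all probe sets given here are for normalized values and none was computed as deposited, so nothing is read from that count. In BP just Dbp lay wholly above Rag1 (9.33% of all probe sets), while Nr1d1 and Nfil3 lay wholly below (14.2%). Nfil3 also lay below in wild type, where 8.7% did. As deposited, Npas2 lay wholly below Rag1 in wild type too, and the brighter Arntl probe set in BP. Between wild type and BP, Tef alone lay wholly above (11.3%) and no member below (7.33%). Of the 10 differences, 9 were positive with a median of 0.38, against 0.04 for all tested probe sets.

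**Figure D3:**
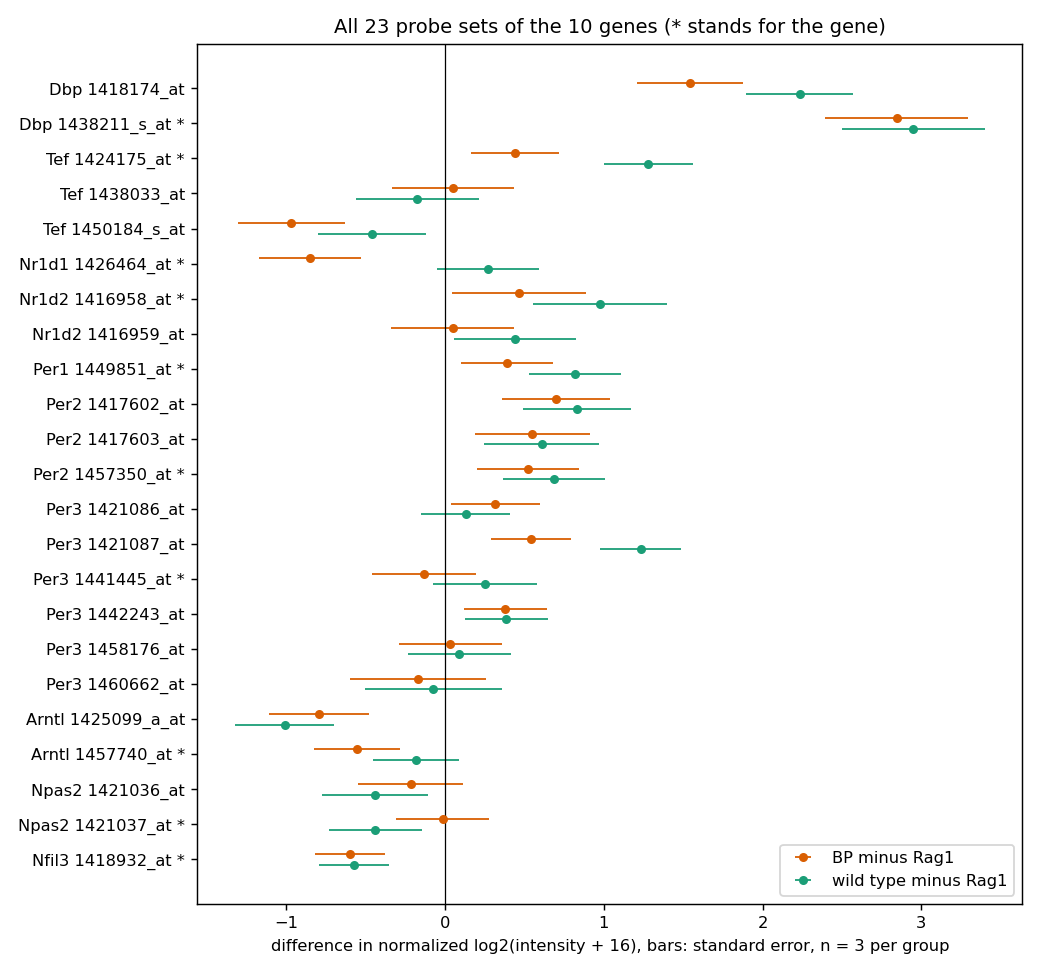
Difference from Rag1 in normalized log2(intensity + 16) for all 23 probe sets of the 10 genes, BP in orange and wild type in green, with standard errors. Both Dbp probe sets lie right of all others for BP, all Arntl, Npas2 and Nfil3 values lie left of 0, and probe sets of Tef and Per3 disagree.

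The BP arrays also differed among themselves. For each array the log2 deviations from the Rag1 mean were averaged over Tef, Nr1d1, Nr1d2, Per1, Per2 and Per3, and over Arntl, Npas2 and Nfil3. On wild type replicates 1, 2 and 3 the first mean was 0.77, 0.89 and 0.48 and the second was -0.44, -0.55 and -0.20. On BP replicates the first was -0.21, 0.17 and 0.45 and the second -0.10, -0.69 and -0.38. The Rag1 arrays lay between -0.08 and 0.14 on the first and between -0.04 and 0.07 on the second. BP replicate 1 was the BP array closest to the Rag1 arrays in the second average. Its Dbp was 1.69 above the Rag1 mean and its Nr1d1 was -0.89 from it.

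Within BP, replicates 2 and 3 had similar Dbp (3.79 and 3.06 from the Rag1 mean) and Nfil3 (-0.69 and -0.58) but differed in other genes. Tef, Per1, Per2 and Per3 were all highest in BP on replicate 3, where Tef, Per1 and Per3 were 1.13, 0.88 and 0.71 above the Rag1 mean. Replicate 2 had 0.15, -0.10 and -0.70 for the same genes. Nr1d2 was instead highest on replicate 2, at 1.70 against 0.12 on replicate 3, and Nr1d1 was below the Rag1 mean on both, at -0.33 and -1.33.

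**Figure D4:**
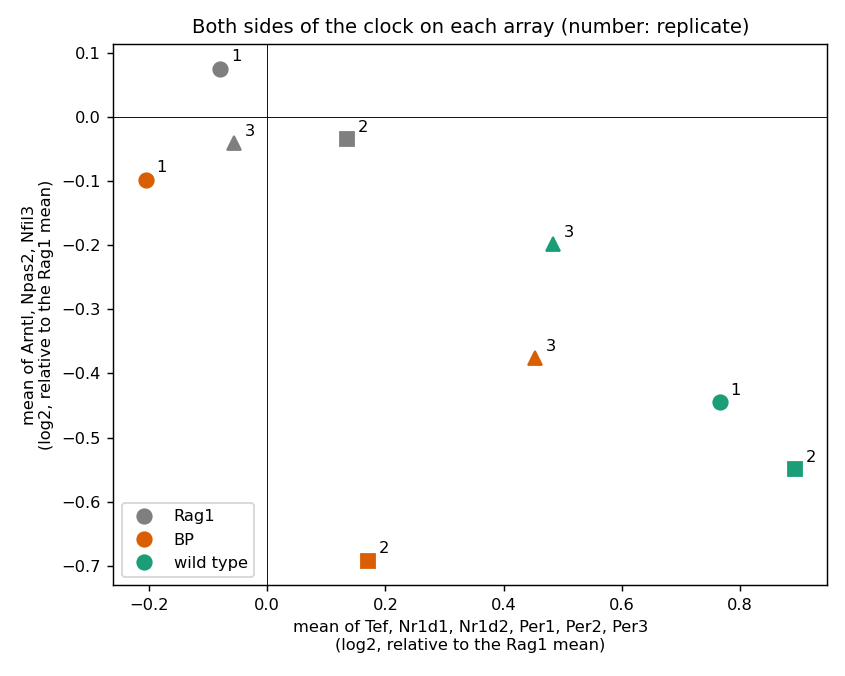
Each of 9 arrays by its mean log2 deviation from the Rag1 mean over 6 genes of the Dbp side without Dbp (horizontal) and over Arntl, Npas2 and Nfil3 (vertical), with the replicate number beside the point. Wild type arrays lie to the lower right, BP replicate 1 to the left, and BP replicate 2 lowest.

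Likeness between members was measured as Pearson r over the 9 arrays, which share the group shifts and the normalization, and is given as a description. Tef had r = 0.87 with Per2, 0.86 with Per1 and 0.68 with Per3. Dbp had 0.72 with Per2, 0.69 with Nr1d2, 0.68 with Tef and 0.59 with Per1, and -0.08 with Nr1d1. On the other side, Dbp had r = -0.96 with Nfil3, -0.68 with the brighter Arntl probe set and -0.86 with the other. Nr1d2 had its lowest value, -0.80, with Npas2. After group means were removed, Dbp had -0.70 with Nfil3, -0.75 with the brighter Arntl probe set and 0.68 with Nr1d2, and Tef had 0.96 with Per2. The BP arrays weigh most in these values. The SD of Dbp was 1.07 within BP, 0.41 within Rag1 and 0.43 within wild type. For Tef it was 0.59, 0.28 and 0.16 in that order. Other pairs changed more: Dbp then had 0.46 with Per2, 0.31 with Tef, -0.01 with Per1 and 0.47 with Nr1d1.

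Ranked by this r to Dbp among 13570 genes, Nfil3 was at rank 2 from the low end. The genes most like Dbp were Fam102a (r = 0.97), the Hsp90 cochaperone Chordc1 (0.96), the transcription factor Ebf1 (0.96), the retinol dehydrogenase family member Rdh7 (0.95) and the aminoacylase Acy3 (0.95). Ebf1 had a Rag1 mean (4.74) under the brightness filter and BP and wild type means (5.55 and 5.76) above it. A high r of Ebf1 to Dbp was therefore favoured by the filter. Rdh7 read 420 to 552 on Rag1, 1142 to 1824 on BP and 1226 to 1357 on wild type arrays. The genes most opposite were the transposase-derived Harbi1 (-0.97), the phosphatase inhibitor Ppp1r14d (-0.95), the microtubule protein Map7 (-0.95), the heparan sulfate epimerase Glce (-0.95) and the innate sensor Nlrp9b (-0.95). Harbi1 read 242 to 311 on Rag1, 62.0 to 128 on BP and 59.3 to 138 on wild type arrays. Any gene that separates Rag1 from both other groups scores high by this measure.

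Other components of the clock were taken from a list of 20 genes outside the members, of which 16 had a tested probe set. This list and those below were chosen with earlier results of these data known. Their counts, p values and medians are therefore a description and support nothing. For BP against Rag1, 0 passed upward and 1 downward in limma, where 2.7% of all probe sets were called lower. An unadjusted p under 0.05 was reached by 4 of 16, against 20.0% of all probe sets. The called gene was Gsk3b, a kinase that phosphorylates several clock proteins. It read 336, 364 and 333 on Rag1 replicates, 144, 150 and 178 on BP replicates and 212, 308 and 292 on wild type replicates. BP was lower, with a difference of -0.97 ± 0.24 (adjusted p = 0.0470). The call held without BP replicate 2 and was lost without any other single array, where adjusted p went up to 0.179, with the replicate number as a block (0.0733), pseudocount 1 (0.0508), no filter (0.0612) and in a fit of only those groups (0.128). Its other 3 tested probe sets gave 0.30, 0.05 and 0.02. The kinase Csnk1d, singled out after its values were seen, had probe sets that disagreed. Its brightest gave 0.21 and was not called, 2 dimmer ones were called lower in limma, at -1.41 and -1.32, and the other 2 gave -0.53 and 0.53 without a call.

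Of the 16 components, 0 passed in limma for wild type against Rag1, where 0.329% of all probe sets were called. Only 1 had an unadjusted p under 0.05, against 5.56% of all probe sets. This was Ciart, a repressor of the Arntl pair, which read 13.4 to 18.9 on Rag1, 12.2 to 36.0 on BP and 33.4 to 46.4 on wild type arrays. The difference was 0.83 ± 0.27 (adjusted p = 0.549). Its Rag1 and BP means (5.03 and 5.16) were under the brightness filter and only its wild type mean (5.85) was above, so a positive difference was favoured by the filter. Bhlhe40, another repressor of the pair, differed by 0.50 ± 0.30 (adjusted p = 0.999). Clock, Cry1 and Cry2 are given for their place in the loop and were chosen after their values were seen. Clock gave -0.07 ± 0.30 for BP against Rag1, and the inhibitors Cry1 and Cry2 gave 0.03 ± 0.25 and -0.28 ± 0.31. None of these passed the test. The list median was -0.17 for BP and 0.10 for wild type, against -0.02 and 0.02 over all genes.

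Between wild type and BP, 0 components passed in limma, where 0.633% of all probe sets were called. An unadjusted p under 0.05 was reached by 4, against 14.6% of all probe sets. The smallest p belonged to Gsk3b, at 0.70 ± 0.24 (adjusted p = 0.202), and the repressor Bhlhe41, at 0.92 ± 0.33 (adjusted p = 0.221).

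A second list held 11 genes that follow the clock in many organs or are bound by it, all tested. For BP against Rag1, 1 passed upward and 0 downward in limma, where 1.1% of all probe sets were called higher. An unadjusted p under 0.05 was reached by 3 of 11, against 20.0% of all probe sets. Tsc22d3, a glucocorticoid-induced leucine zipper protein, read 304 to 333 on Rag1, 617, 555 and 878 on BP replicates and 396 to 657 on wild type arrays. It was higher in BP by 1.13 ± 0.28 (adjusted p = 0.0485). The call held without BP replicate 2 or wild type replicate 2 and was lost without any other single array (adjusted p up to 0.176). It was also lost with median centring (0.0667), pseudocounts 1 (0.0520) and 64 (0.0508), no filter (0.0546), a fit of only those groups (0.105) and without BP replicates 1 and 3 (0.139). Its other 3 tested probe sets gave -0.21, -1.10 and 0.31, so the direction depended on the probe set.

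In the wild type comparison with Rag1, 0 of these 11 passed in limma, where 0.329% of all probe sets were called. An unadjusted p under 0.05 was reached by 2, against 5.56% of all probe sets. The deubiquitinase Usp2 read 373, 406 and 392 on Rag1 replicates, 514, 404 and 855 on BP replicates and 891, 705 and 671 on wild type replicates. Wild type lay wholly above Rag1, by 0.97 ± 0.31 (adjusted p = 0.547), and its second probe set gave 1.28. Tsc22d3 differed by 0.82 ± 0.28 (adjusted p = 0.612). Between wild type and BP 0 passed, where 0.633% of all probe sets were called, and 1 had an unadjusted p under 0.05 (14.6% of all probe sets). It was the heme synthesis enzyme Alas1, at 0.45 ± 0.17 (adjusted p = 0.237), followed by the transferrin receptor Tfrc, at -0.32 ± 0.17 (adjusted p = 0.418). The list median was 0.38 for BP and 0.19 for wild type.

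The last list held 13 intestinal transporters and xenobiotic enzymes taken as candidate outputs of the clock, 11 of them tested. It too was chosen with earlier results of these data known, so nothing is read from its counts and medians. For BP against Rag1, 3 passed upward and 0 downward in limma, where 1.1% of all probe sets were called higher and 2.7% lower. An unadjusted p under 0.05 was reached by 6 of 11, against 20.0% of all probe sets. The conjugate export pump Abcc2 read 347, 264 and 336 on Rag1 replicates, 489, 603 and 674 on BP replicates and 564, 485 and 449 on wild type replicates. It was higher in BP by 0.95 ± 0.21 (adjusted p = 0.0329). The carboxylesterase Ces2a read 664 to 939 on Rag1 and 1353, 2452 and 2056 on BP replicates (1.27 ± 0.22, adjusted p = 0.0151), and the drug oxidase Cyp3a11 read 205 to 706 and 1256, 2819 and 862 (1.96 ± 0.43, adjusted p = 0.0344).

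These 3 genes were above all Rag1 arrays on every BP array. Without Rag1 replicate 1, 2 or 3 or BP replicate 3 none of them passed, with adjusted p of 0.0545 to 0.136. Abcc2 and Cyp3a11 passed with just BP replicate 2 or wild type replicate 2 left out, among single arrays. The Abcc2 call was also lost with median centring (adjusted p = 0.0567) and the Cyp3a11 call on the values as deposited (0.0609). Ces2a passed without any of the other 5 arrays. In a fit of only the BP and Rag1 arrays Ces2a alone passed (adjusted p = 0.0455).

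Of the 11 output genes, 0 passed in limma for wild type against Rag1, where 0.329% of all probe sets were called. An unadjusted p under 0.05 was reached by 7, against 5.56% of all probe sets. The fructose transporter Slc2a5 read 442, 570 and 290 on Rag1 replicates and 845, 892 and 731 on wild type replicates, a difference of 0.99 ± 0.26 (adjusted p = 0.308). Cyp3a11 differed by 1.53 ± 0.43 (adjusted p = 0.393). The list median was 0.70, and 0.68 for BP, against 0.02 and -0.02 over all genes. Between wild type and BP 0 passed, where 0.633% of all probe sets were called, and 1 had an unadjusted p under 0.05 (14.6% of all probe sets). It was Ces2a, at -0.52 ± 0.22 (adjusted p = 0.301), followed by the peptide transporter Slc15a1, at 0.29 ± 0.16 (adjusted p = 0.424).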

How the data were processed

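The authors deposited linear intensities of one-colour Affymetrix arrays, 1 value per probe set and array. Per the labels, biotin-labelled cRNA was hybridized. The summarizing software, array scaling and genome build are not given in the sources used here. Each column carries its sample's name, groups and replicate numbers come from titles, and 0 columns were unmatched. Values were quantile-normalized as log2(intensity + 16). The 64 control probe sets and the dimmest 40% (mean of the 9 arrays) were dropped, which kept 27022. Differences and standard errors come from limma 3.58.1 (R 4.3.3) with 1 mean per group, all arrays in 1 fit, an intensity trend and two-sided p, adjusted by Benjamini-Hochberg over all 27022. A gene stands for its brightest tested probe set. The fit was tested on simulated data. Named genes were all members, called list genes or the 2 smallest p, and the 5 highest and 5 lowest r to Dbp without clone genes. Clock, Cry1, Cry2 and Csnk1d were added outside this rule, after their values were seen. Members and lists were chosen with earlier results of these data known. Only 3 arrays per group limit the precision.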

Additional observations from a re-analysis of the deposited data

How the results depend on the processing

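Of 190 member values under alternatives per comparison, 190 kept their sign for wild type against Rag1, 182 for BP against Rag1 and 181 for wild type against BP. Counts of called probe sets were less stable. For BP against Rag1 the 298 higher and 729 lower became 158 and 1054 with median centring and 130 and 641 as deposited, and 183 probe sets were called in a fit of only those groups. Wild type against BP gave 499 with median centring, 108 as deposited and 51 in a fit of 2 groups, and wild type against Rag1 gave 338 in such a fit. As deposited, the median over all tested probe sets for wild type against Rag1 was -0.12 in place of -0.01.

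Leaving out 1 array gave 18 to 5275 called probe sets for BP against Rag1 (main 1027), 37 to 347 for wild type against Rag1 (main 89) and 55 to 3029 for wild type against BP (main 171), the highest counts without BP replicate 2. The called genes in the lists of components, clock-linked genes and gut outputs ranged from 0 to 5 each for BP against Rag1. For wild type against Rag1 they ranged from 0 to 0, 0 to 1 and 0 to 2, and for wild type against BP from 0 to 2, 0 to 3 and 0 to 0.

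Without BP replicates 1 and 3 the probe sets called were 5936, 336 and 5657 for BP against Rag1, wild type against Rag1 and wild type against BP. The list calls then were 4, 4 and 5 for the first, 0, 1 and 1 for the second and 3, 3 and 0 for the last. For BP against Rag1, the component call was lost (0) with pseudocount 1, no filter, the replicate block and the 2-group fit. The clock-linked call was lost (0) with median centring, pseudocounts 1 and 64, no filter and the 2-group fit, which left 1 gut output call. For wild type against Rag1 that fit called 1 clock-linked and 1 gut output gene. The cause was not tested.

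Deviations from the group means had r from -0.19 to 0.23 for equal and -0.17 to 0.18 for unequal replicate numbers. With 3 arrays per group this cannot show whether the numbers pair samples, and the main fit used no pairing. With the replicate block 799, 74 and 142 probe sets were called in the 3 comparisons.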
